A study of Mus musculus with 3 samples.

Results

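The vitamin D and retinoid receptor genes described here are 7 of the 22548 genes in the matrix. They are Vdr, the vitamin D receptor, Cyp24a1, its classical target and the enzyme that breaks down active vitamin D, Cyp27b1, the enzyme that makes active vitamin D, and the receptor genes Rxra, Rxrb, Rara and Rarg. They were chosen by name, as vitamin D and retinoid genes, because MC903 (calcipotriol), the compound painted on the skin of these mice, is a vitamin D analogue. The question was whether the lymph node cells carry its receptor and that receptor's targets.

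The cells were sorted from the ear-draining lymph node of mice carrying a Siglech-driven Cre, a ROSA26 LoxP-STOP-LoxP-RFP allele and 1 Tnfsf4 knock-in allele that reports with BFP. RFP therefore marks cells in which Siglech-driven Cre was active at any time, and BFP marks current use of Tnfsf4, which encodes OX40L. All mice received MC903 on days 0, 2 and 4 and were sorted on day 5, and no untreated sample was used here. The gate took B220-, MHCII-high, CD11c low to intermediate, XCR1-, CD326- cells, meaning migratory dendritic cells without Langerhans cells or cDC1. The 4 sorted populations carried both reporters (BFP+RFP+, 5200 cells pooled), RFP alone (BFP-RFP+, 5200 cells), BFP alone (BFP+RFP-, 10400 cells) or neither (BFP-RFP-, 5200 cells). Each had its own hashtag oligo. They were stained as 1 pool with antibody tags against CD11b, CD8a, CD172a and CD301b, and run in 1 capture. The number of mice behind each population is not given in the sources used here.

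The vitamin D receptor is a nuclear receptor that binds DNA as a heterodimer with a retinoid X receptor. RXR is also the partner of the retinoic acid receptors, of PPAR and LXR receptors and of thyroid hormone receptors, so these pathways share a subunit. Ligand-bound VDR induces Cyp24a1 in many cell types. In skin, vitamin D analogues act on keratinocytes, and in dendritic cells retinoic acid made by Aldh1a2 is known for its part in instructing T cells and B cells to home to the gut.

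Each population is a single sample, so no comparison below has a replicate check and no p-value is given. Levels are summed UMIs (unique transcript molecules) per 1000000 mRNA UMIs, written CPM, with exact Poisson 95% intervals. Ratios carry exact conditional binomial 95% intervals. These intervals cover counting error only. A 3'-end UMI level is not per transcript length, so levels are compared between cells, never between genes.

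The populations and the surface proteins were read from designed oligos, shown here because each value below rests on counting them. The hashtag oligos, written 5′ to 3′, were:
BFP+RFP+: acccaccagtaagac
BFP-RFP+: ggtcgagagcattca
BFP+RFP-: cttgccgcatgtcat
BFP-RFP-: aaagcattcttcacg
The antibody tag oligos, written in the same way, were:
CD11b: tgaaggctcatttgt
CD8a: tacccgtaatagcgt
CD172a: gattcccttgtagca
CD301b: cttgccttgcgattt
The CD172a tag was of the TotalSeq-C and the CD301b tag of the TotalSeq-B kind, and the other tags were TotalSeq-A. Summed over all cells, the mRNA of the tagged protein followed its tag in all 4 cases. Cells were ranked by tag UMIs within each population and cut into 4 bins of about 25% of the cells, and the highest bin is called tag-high and the lowest tag-low. Between tag-high and tag-low cells, Itgam (CD11b) had 127 against 0 UMIs, Cd8a 1644 against 29, Sirpa (CD172a) 3868 against 415 and Mgl2 (CD301b) 994 against 101. Itgam was sparse, with 136 UMIs in 60 cells. Of the clusters described below, it had 31.7 CPM in cluster 9, led by C1qa. In cluster 5, led by Ifitm1, it had 0.28 CPM although the median CD11b tag there was 224 UMIs. The Itgam check thus says little about the CD11b tag in cells such as those of cluster 5.

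Of 6079 barcodes, 5023 had 80% or more of their hashtag UMIs in 1 hashtag, 1000 or more mRNA UMIs and at most 10% mitochondrial UMIs. They were 842 cells of BFP+RFP+, 982 of BFP-RFP+, 2185 of BFP+RFP- and 1014 of BFP-RFP-, whose medians ran from 13884 to 15182 mRNA UMIs per cell. The 10 migratory dendritic cell markers, such as Ccr7 and Fscn1, summed to between 11135 and 11470 CPM in the 4 populations. Ccr7 and Fscn1 also had 800 and 929 CPM in the T and NK-like cluster 8 described below, so these sums alone do not set the cell type. The 8 CD11b-positive cDC2 markers summed to between 202 and 334 CPM. Other cells were present too. The 8 defining macrophage markers, 7 of them detected and Vsig4 at 0, summed to 24.8 CPM in BFP+RFP+, 95.8 CPM in BFP-RFP+, 31.1 CPM in BFP+RFP- and 165 CPM in BFP-RFP- cells. The 8 B cell markers lay between 91.5 and 126 CPM and the 9 T and NK cell markers between 124 and 193 CPM, while the 4 Langerhans cell markers lay between 45.4 and 137 CPM. The 6 monocyte and neutrophil markers summed to 137 CPM in BFP+RFP+, 340 CPM in BFP-RFP+, 94.2 CPM in BFP+RFP- and 384 CPM in BFP-RFP- cells. The 8 listed cDC1 markers summed to between 445 and 500 CPM (Clec9a and Tlr3 at 0 in BFP+RFP+ cells) and the 8 plasmacytoid dendritic cell markers to between 482 and 727 CPM.

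Vdr was present in all 4 populations, at similar levels. It had 492 UMIs in BFP+RFP+, 427 in BFP-RFP+, 1106 in BFP+RFP- and 450 in BFP-RFP- cells. These were 34.8 CPM (31.8 to 38.0), 27.1 CPM (24.6 to 29.8), 31.1 CPM (29.3 to 33.0) and 30.2 CPM (27.5 to 33.2) in that order. BFP+RFP+ cells were highest, BFP-RFP+ cells lowest, and the other populations lay between them with overlapping intervals.

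The log2 ratio of Vdr between BFP+RFP+ and BFP-RFP+ cells was 0.36 (0.17 to 0.55), a 1.28-fold difference that exceeded counting error. Between BFP+RFP- and BFP-RFP- cells it was 0.04 (-0.12 to 0.20). The comparison of BFP+RFP+ with BFP+RFP- cells gave 0.16 (0.01 to 0.32), and that of BFP-RFP+ with BFP-RFP- cells gave -0.16 (-0.35 to 0.04). None reached the size used here to call a gene, a log2 ratio of 0.5 in either direction.

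A Vdr UMI was seen in 231 cells (27.4%) of BFP+RFP+, 210 (21.4%) of BFP-RFP+, 525 (24.03%) of BFP+RFP- and 197 (19.4%) of BFP-RFP-. Thinning each cell to 5000 mRNA UMIs, which left out the 377 shallower cells, brought these shares to 13.2%, 9%, 10.7% and 10.8%. In the cells of other types in the same capture the thinned share was 4.02% (9 of 224) in a T and NK-like cluster and 4.17% (2 of 48) in a B-like cluster, whose leading genes are given below. Those clusters also held Fscn1, a migratory dendritic cell gene, in 41.1% and 35.4% of cells, against 94.6% over all cells, so their Vdr UMIs cannot be told apart from RNA of other cells. The Vdr share over all cells, 10.8%, which counts these clusters too, was above both values. It lay above the interval of the T and NK-like share, 1.85% to 7.49%, but inside that of the B-like share, 0.51% to 14.3%.

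Vdr counts were uneven between cells. Over all populations 106 cells (2.11%) had 5 or more Vdr UMIs. The highest single cell had 29 UMIs and was BFP-RFP-. The 5 highest cells held 14.2% of the Vdr UMIs of BFP+RFP+, 8.90% of those of BFP-RFP+, 5.06% of those of BFP+RFP- and 17.6% of those of BFP-RFP- cells. The levels of Vdr in BFP+RFP+ and BFP-RFP- cells thus rested on few cells more than their intervals show.

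Cyp24a1, which VDR signalling induces in many cell types, was almost absent. It had 0 UMIs in BFP+RFP+, 0 in BFP-RFP+, 6 in BFP+RFP- and 16 in BFP-RFP- cells. Taking the limit of a count of 0 as 3 counts, it allows up to 0.212 CPM in BFP+RFP+ and 0.191 CPM in BFP-RFP+ cells (exact upper limits 0.261 and 0.234 CPM), while BFP+RFP- cells had 0.17 CPM (0.06 to 0.37) and BFP-RFP- cells 1.08 CPM (0.61 to 1.75). The 22 UMIs lay in 6 of 5023 cells, 3 of them BFP+RFP- and 3 BFP-RFP-, and 1 BFP-RFP- cell held 14 of them.

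The 6 Cyp24a1 cells had surface and cluster features in common. Of the 6, 5 were CD11b-tag-high, with 229 to 1100 CD11b tag UMIs, where the median over all CD11b-tag-high cells was 284. Again 5 of the 6 were in cluster 5, a group of cells led by Ifitm1, Isg15 and Apol7c, and the other was in cluster 9, led by C1qa. Vdr itself was detected in 3 of the 6 cells, with 11, 6 and 2 UMIs, and the cell with 14 Cyp24a1 UMIs showed none. These 6 cells are too few to compare shares between populations, and these features were noted after their values were seen.

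Cyp27b1, which activates 25-hydroxyvitamin D, had 0 UMIs in all 4 populations. Over the 80355067 mRNA UMIs of all cells, a count of 0, again taken as 3 counts, allows a level of up to 0.0373 CPM and a share of cells with a UMI of up to 0.0597%. The exact upper limits are 0.0459 CPM and 0.0734%. MC903 needs no such step, since it already carries the hydroxyl group this enzyme adds.

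**Figure D1:**
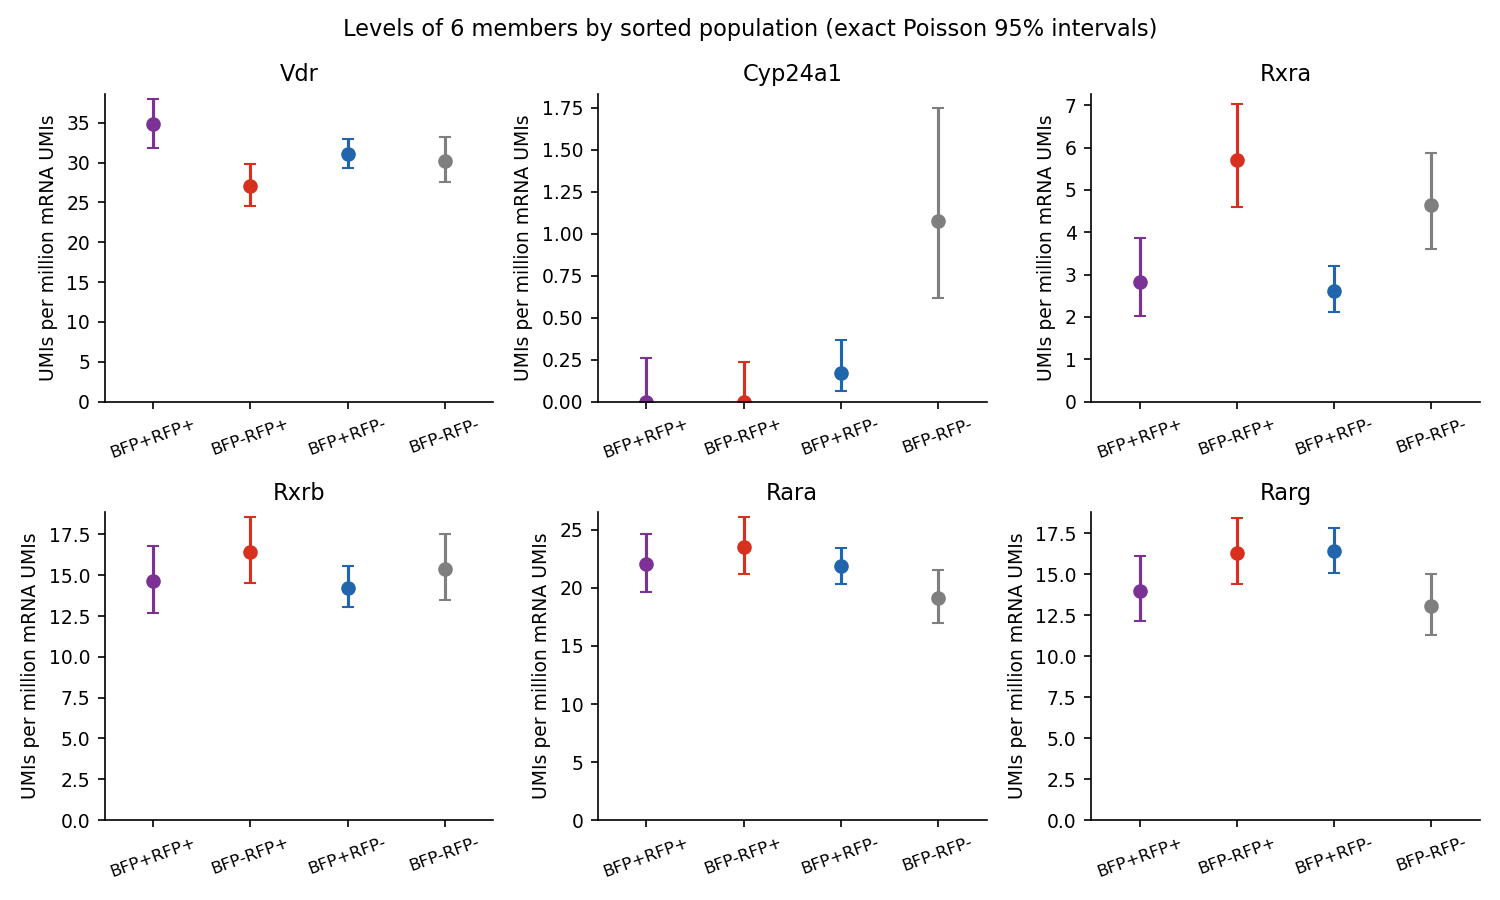
Levels of 6 of the genes in each sorted population, in CPM (vertical axes start at 0; points are summed levels, lines exact Poisson 95% intervals; Cyp27b1 had 0 UMIs and is not drawn). Vdr lay between 27.1 and 34.8 CPM, Rxra was lower in both BFP+ populations than in both BFP- populations, and Cyp24a1 was above 0 in RFP- cells alone.

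Rxra, one of the RXR partners of VDR, was lower in BFP+ cells on both RFP backgrounds. It had 40 UMIs in BFP+RFP+ against 90 in BFP-RFP+ cells, or 2.83 CPM (2.02 to 3.85) against 5.72 CPM (4.60 to 7.03). It had 93 UMIs in BFP+RFP- against 69 in BFP-RFP- cells, or 2.61 CPM (2.11 to 3.20) against 4.64 CPM (3.61 to 5.87). The intervals of BFP+ and BFP- populations did not overlap on either background.

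The log2 ratio of Rxra was -1.005 (-1.59 to -0.46) for BFP+RFP+ against BFP-RFP+ cells and -0.83 (-1.29 to -0.36) for BFP+RFP- against BFP-RFP- cells. Rxra was the only 1 of the 5 members with at least 100 UMIs to pass the size of 0.5 in these comparisons. In the first, 16.1% of all 10888 genes with at least 100 UMIs passed it, and in the second 9.73%, so 1 of 5 is near the background. Between RFP+ and RFP- cells Rxra gave 0.12 (-0.46 to 0.66) in BFP+ and 0.30 (-0.17 to 0.78) in BFP- cells. There 0 of 5 members passed, against 13.4% of genes in BFP+ and 12.2% in BFP- cells.

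Part of the Rxra UMIs lay in cluster 9, whose share differed between the populations. Of the listed markers, 6 macrophage and 6 CD11b-positive cDC2 markers were raised in this cluster. Its leading genes include the cDC2 markers Cd209a and Mgl2 beside C1qa, so it was not named as a cell type. Cluster 9, whose leading genes are C1qa, C1qb and Lyz2, held 23.3% of all Rxra UMIs in 124 cells, at 19.8 CPM (15.4 to 25.1) against 3.63 CPM over all cells. It made up 1.19% of the cells of BFP+RFP+, 5.19% of BFP-RFP+, 0.870% of BFP+RFP- and 4.34% of BFP-RFP-. Without clusters 8, 9, 11 and 12, the clusters of other cell types or of unnamed myeloid cells, the Rxra log2 ratio was -0.57 in RFP+ cells and -0.48 in RFP- cells, and the second no longer passed the size of 0.5. Both values stayed within the counting intervals of the ratios over all cells. Cluster 9 was not left out alone, and its own part in the difference was not tested.

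Rxrb, the other RXR gene among the members, was even across populations, with 207 UMIs in BFP+RFP+, 259 in BFP-RFP+, 507 in BFP+RFP- and 229 in BFP-RFP- cells. Its levels were 14.6, 16.4, 14.2 and 15.4 CPM in that order, all within overlapping intervals, and its 4 ratios lay between -0.17 and 0.10. Cells with both a Vdr UMI and a UMI of Rxra, Rxrb or Rxrg were also counted, where Rxrg had 11 UMIs over all cells. They were 8.55% of BFP+RFP+, 7.74% of BFP-RFP+, 6.41% of BFP+RFP- and 5.33% of BFP-RFP- cells, or 342 cells in all. At this depth a cell without both UMIs may still hold both transcripts.

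Rara, the retinoic acid receptor gene best known in blood cells, had 312 UMIs in BFP+RFP+, 371 in BFP-RFP+, 779 in BFP+RFP- and 285 in BFP-RFP- cells. Its levels were 22.1, 23.6, 21.9 and 19.2 CPM in that order, lowest in BFP-RFP- cells. The largest of its ratios was that of BFP-RFP+ against BFP-RFP- cells, 0.30 (0.07 to 0.53).

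Rarg, a retinoic acid receptor gene best known in skin, had 198 UMIs in BFP+RFP+, 257 in BFP-RFP+, 584 in BFP+RFP- and 194 in BFP-RFP- cells. Its levels were 14.0, 16.3, 16.4 and 13.0 CPM in that order. BFP+RFP- cells exceeded BFP-RFP- cells by a log2 ratio of 0.33 (0.09 to 0.57), and BFP-RFP+ cells exceeded BFP-RFP- cells by 0.32 (0.05 to 0.60). Both stayed under the size of 0.5.

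Vdr followed the CD11b tag. From the lowest to the highest CD11b bin over all populations, Vdr had 12.3, 20.2, 30.1 and 50.8 CPM. A Vdr UMI was seen in 9.77%, 15.6%, 27.3% and 40.2% of the cells of these bins. The level of Vdr was higher in each step up in CD11b tag over all cells.

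The order was the same within the sorted populations, with small exceptions between neighbours. BFP+RFP- cells had 9.26, 16.6, 28.6 and 56.9 CPM of Vdr across the bins, and BFP-RFP- cells had 7.41, 16.1, 29.6 and 57.9 CPM. BFP+RFP+ cells had 25.4, 25.2, 39.6 and 43.8 CPM, and BFP-RFP+ cells had 12.1, 27.5, 25.9 and 37.3 CPM. In every population the highest bin was above the lowest with intervals apart. Bins 1 and 2 of BFP+RFP+ cells and bins 2 and 3 of BFP-RFP+ cells differed by less than counting error.

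**Figure D2:**
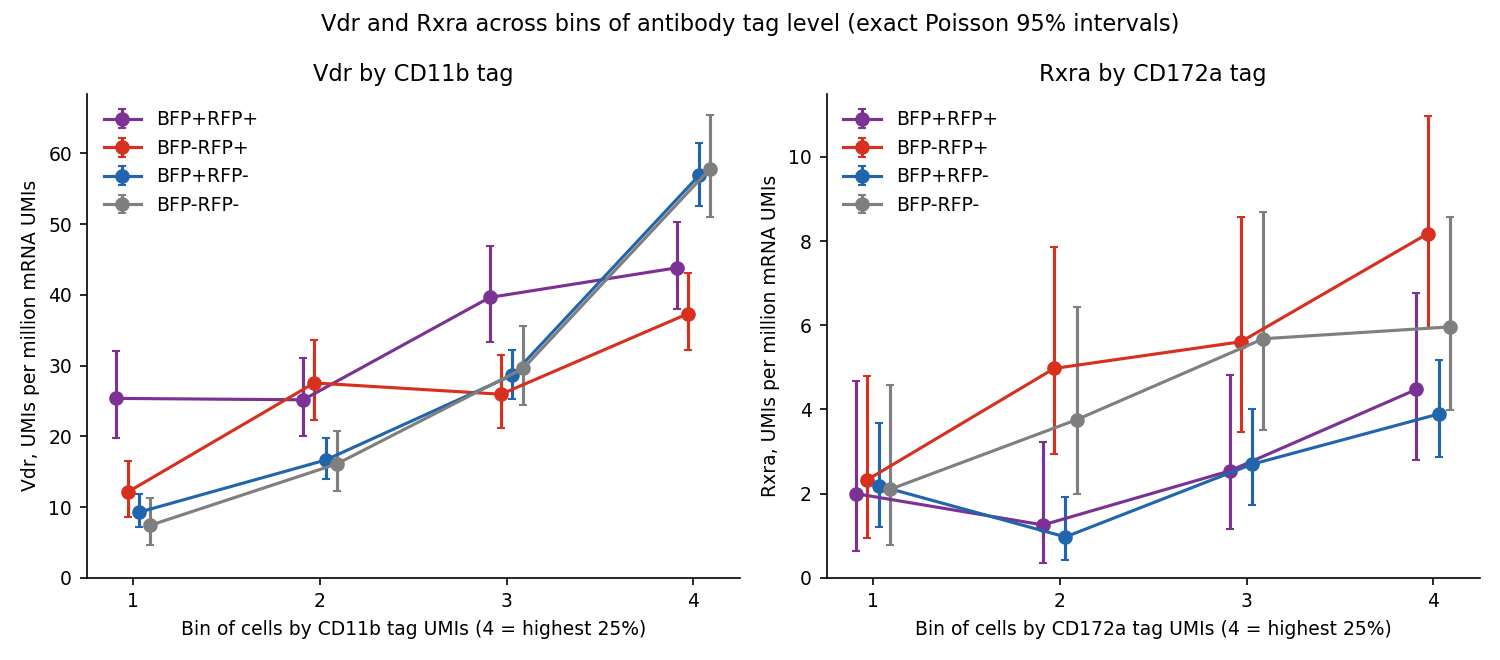
Vdr by bin of CD11b tag (left) and Rxra by bin of CD172a tag (right), in CPM, for each sorted population; bins were set within each population and lines are exact Poisson 95% intervals. Vdr reached 56.9 and 57.9 CPM in the highest CD11b bin of the RFP- populations, and Rxra was highest in the highest CD172a bin of each population.

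Between CD11b-tag-high and CD11b-tag-low cells over all populations, Vdr had 1282 against 194 UMIs, a 4.13-fold difference and a log2 ratio of 2.05 (1.83 to 2.28). It was 0.78 (0.39 to 1.21) in BFP+RFP+ cells, from 201 against 69 UMIs, and 1.61 (1.12 to 2.16) in BFP-RFP+ cells, from 188 against 39 UMIs. It was 2.61 (2.25 to 3.01) in BFP+RFP- cells, from 639 against 64 UMIs, and 2.94 (2.33 to 3.66) in BFP-RFP- cells, from 254 against 22 UMIs. The intervals of the RFP+ and RFP- populations did not overlap. The difference between populations has no replicate behind it.

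Many genes differed with this tag. Of the 10888 genes with at least 100 UMIs, 23.8% passed a log2 ratio of 0.5 in either direction, 9.12% higher and 14.7% lower, and 1 of the 5 members, Vdr, did so. A ratio as high as that of Vdr was reached by 167 of these genes, or 1.53%. Within single populations the share of genes at or above the Vdr ratio was 6.38% in BFP+RFP+, 2.39% in BFP-RFP+, 1.35% in BFP+RFP- and 1.63% in BFP-RFP- cells.

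CD11b-tag-high cells were deeper, with a median of 17642 against 11617.5 mRNA UMIs in CD11b-tag-low cells. With tag UMIs taken per 10000 mRNA UMIs of the cell the Vdr ratio was 1.71. They also held other cells in other amounts. Macrophage markers summed to 174 CPM in CD11b-tag-high against 16.9 CPM in CD11b-tag-low cells (Vsig4 at 0 in both, Fcgr1 at 0 in low). The 6 monocyte and neutrophil markers summed to 567 against 42.4 CPM, the B cell markers to 51.8 against 295 CPM and the T and NK cell markers to 72.0 against 432 CPM. Without clusters 8, 9, 11 and 12 the Vdr ratio was 0.74 in BFP+RFP+, 1.76 in BFP-RFP+, 2.46 in BFP+RFP- and 2.99 in BFP-RFP- cells, so the difference was present without these cells in each population.

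The other receptors had smaller differences with the CD11b tag over all cells. Rarg had 477 against 220 UMIs, or 18.9 CPM in CD11b-tag-high and 13.9 CPM in CD11b-tag-low cells, a log2 ratio of 0.44 (0.21 to 0.68), under the size of 0.5 here and past it in some other settings given in the closing section. Rara gave 0.22 (0.03 to 0.42) and Rxrb 0.07. Rxra gave 0.06 (-0.38 to 0.53) over all cells, and its values within populations ran in both directions, from 1.21 in BFP+RFP+ cells to -0.90 in BFP+RFP- cells. Without clusters 8, 9, 11 and 12 the pooled Rxra ratio was -0.79, and without barcodes with 3 or more UMIs of other cell types' markers it was -0.71, both past the size of 0.5 and opposite in sign to Vdr.

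Over all cells, Rxra followed the CD172a tag. CD172a is SIRPα, a surface protein of cDC2, monocytes and macrophages. Rxra had 2.17, 2.32, 3.77 and 5.21 CPM from the lowest to the highest bin of CD172a tag, with 142 UMIs in CD172a-tag-high and 32 in CD172a-tag-low cells and a log2 ratio of 1.25 (0.70 to 1.87). In the CD172a comparison 25.9% of genes passed 0.5 in either direction, and 2 of the 5 members did, Rxra and Vdr.

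Rxra was higher with the CD172a tag in each of the 4 populations. CD172a-tag-high and CD172a-tag-low cells had 22 against 5 Rxra UMIs in BFP+RFP+, 44 against 7 in BFP-RFP+, 47 against 14 in BFP+RFP- and 29 against 6 in BFP-RFP- cells. The log2 ratios were 1.06, 1.73, 0.79 and 1.41 in that order, and the intervals of BFP+RFP+ and BFP+RFP- cells included 0. Macrophage markers moved with it, at 159 CPM in CD172a-tag-high against 9.08 CPM in CD172a-tag-low cells. Without clusters 8, 9, 11 and 12 the Rxra ratio was 0.93 over all cells, and 0.90 in BFP+RFP+, 1.63 in BFP-RFP+, 0.53 in BFP+RFP- and 1.04 in BFP-RFP- cells. The call was lost in BFP-RFP+ cells with a centred log ratio of the tags, at 0.19, and in BFP+RFP- cells without barcodes with 3 or more UMIs of other cell types' markers, at 0.41. Within single clusters with at least 30 cells in both groups, Rxra counts were small and every interval included 0. Clusters 1, 2, 4 and 6 gave ratios of 1.37, 1.32, 0.58 and 2.43. Clusters 3, 5 and 8 ran the other way, at -0.33, -0.45 and -0.88. A link with the tag inside a cluster is thus not shown for Rxra.

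Vdr had 931 UMIs in CD172a-tag-high and 338 in CD172a-tag-low cells, or 34.2 against 22.9 CPM, a log2 ratio of 0.58 (0.40 to 0.76). It was 0.67 in BFP+RFP+ and 1.09 in BFP+RFP- cells but -0.24 in BFP-RFP+ and 0.19 in BFP-RFP- cells. The pooled value changed sign to -0.11 when tag UMIs were taken per 10000 mRNA UMIs of the cell, so no direction is given for Vdr with CD172a.

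CD8a is known from lymphoid-resident dendritic cells and some plasmacytoid dendritic cells, and its tag was highest in BFP+RFP+ cells, at a median of 121 UMIs against 40 to 63 in the other populations. Rxra was lower in CD8a-tag-high cells, with 68 against 83 UMIs, or 2.62 against 5.33 CPM, a log2 ratio of -1.02 (-1.51 to -0.55). Its 4 values within populations ran from -0.76 to -1.39, and the intervals of both RFP+ populations included 0. It was the only member of 5 past 0.5 in size for this tag, against 17.3% of genes.

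Vdr moved with the CD8a tag in opposite directions in different populations. CD8a-tag-high and CD8a-tag-low cells had 154 against 52 Vdr UMIs in BFP+RFP+ cells and 182 against 59 in BFP-RFP+ cells, at log2 ratios of 0.67 (0.21 to 1.16) and 0.77 (0.35 to 1.23). BFP+RFP- cells had 267 against 309 UMIs and a ratio of -0.91 (-1.15 to -0.67), and BFP-RFP- cells had 150 against 94 UMIs and a ratio of 0.09. Over all cells these gave -0.19 (-0.35 to -0.02). For CD301b, 0 of the 5 members passed 0.5 in size, against 15.7% of genes, and Vdr gave 0.06 over all cells. Within populations Vdr gave -0.22 in BFP+RFP+, -0.41 in BFP-RFP+, 0.53 (0.30 to 0.78) in BFP+RFP- and -0.44 (-0.84 to -0.05) in BFP-RFP- cells, so the pooled value averages both directions. Some other tag scalings and cell filters, given in the closing section, called 1 or 2 members for this tag.

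**Figure D3:**
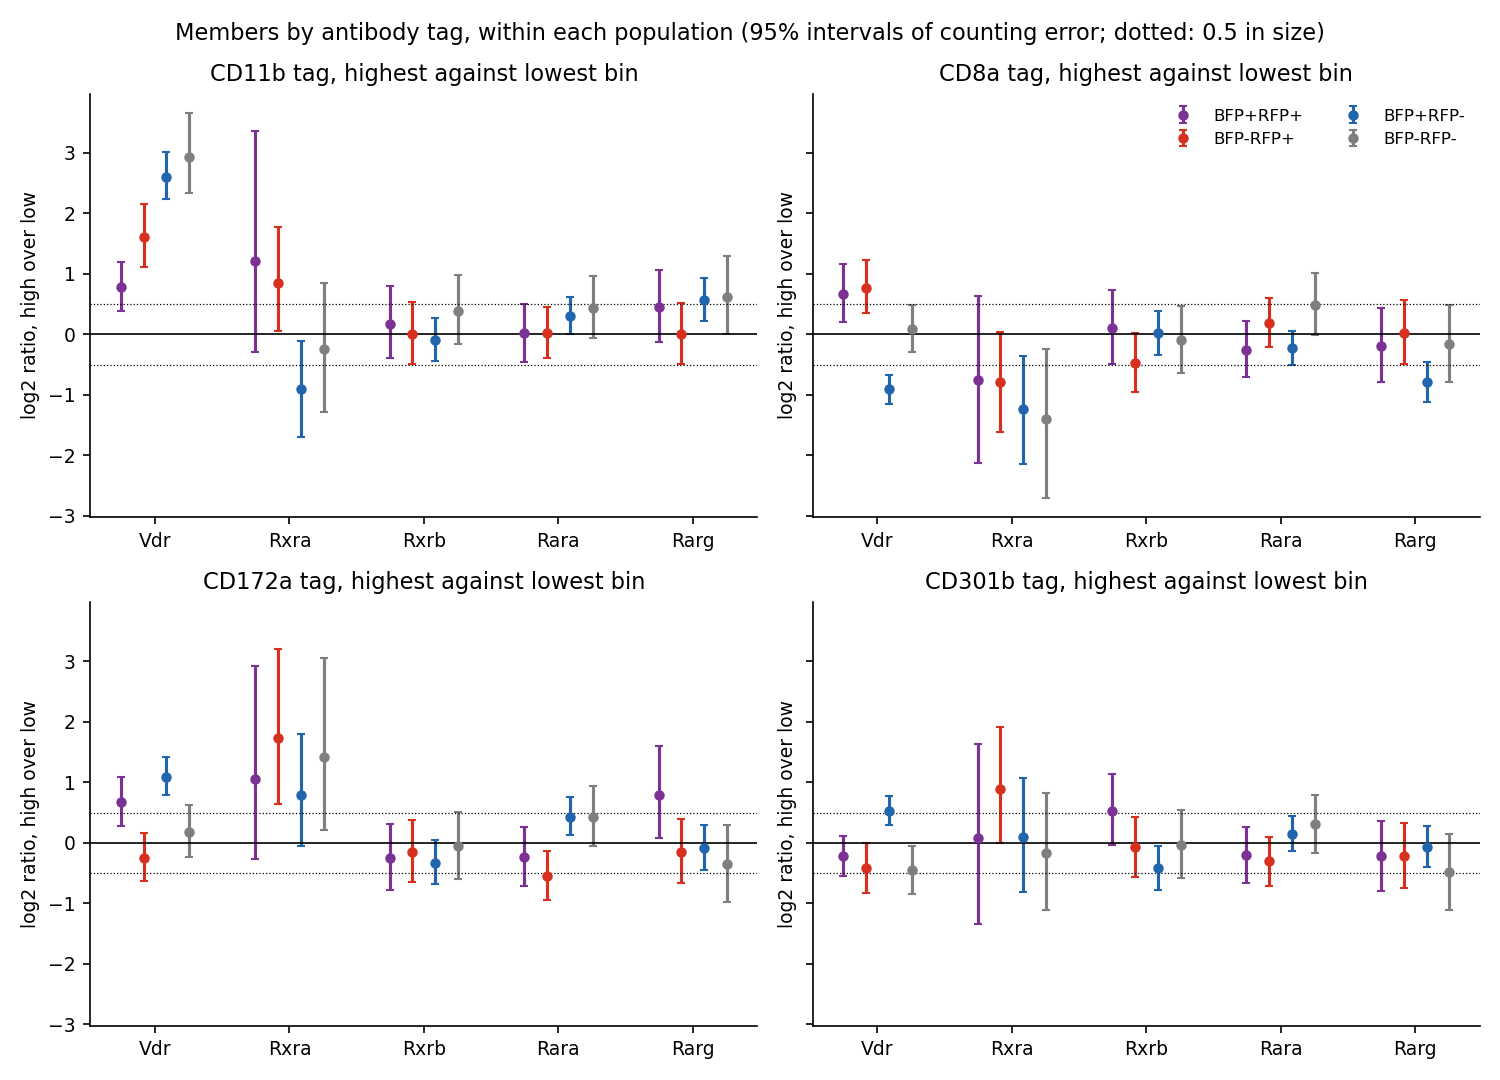
Log2 ratio of each receptor gene between tag-high and tag-low cells, within each sorted population; lines are 95% intervals of counting error and dotted lines mark 0.5 in size. Vdr was above 0 in all 4 populations for CD11b, and Rxra was below 0 for CD8a and above 0 for CD172a in all 4.

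Cells were grouped into 13 clusters by their expression, with the 7 genes left out of the clustering together with the reporters, Tnfsf4 and Siglech. Vdr was highest in cluster 5, led by Ifitm1, Isg15 and Apol7c, at 61.5 CPM (56.9 to 66.3), and in cluster 2, led by Tnfsf4, Thy1 and Dll4, at 52.1 CPM (48.6 to 55.8). These clusters held 27.0% and 33.2% of all Vdr UMIs. It was lowest among clusters of over 50 cells in cluster 6, led by Frmd5 and Shisa9, at 5.64 CPM (4.05 to 7.65), and in cluster 3, led by Serpinb9b, at 9.58 CPM. The other clusters of that size lay between 11.2 CPM, in the B-like cluster 11, and 30.7 CPM, in cluster 1.

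The populations reached their similar Vdr levels through different clusters. Cluster 2 held 34.7% of BFP+RFP+ and 19.7% of BFP-RFP+ cells but 9.43% of BFP+RFP- and 4.73% of BFP-RFP- cells. Cluster 5 held 2.02% of BFP+RFP+ and 5.50% of BFP-RFP+ cells but 16.9% of BFP+RFP- and 15.6% of BFP-RFP- cells. Within cluster 2, Vdr had 50.5 CPM in BFP+RFP+, 56.4 CPM in BFP-RFP+, 43.3 CPM in BFP+RFP- and 85.4 CPM in BFP-RFP- cells. The last value (68.9 to 105) came from 48 cells, of which 5 held 52.7% of the UMIs. Within cluster 5 it had 44.2 CPM in BFP-RFP+, 65.7 CPM in BFP+RFP- and 54.9 CPM in BFP-RFP- cells.

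CD11b-tag-high and CD11b-tag-low cells differed in their clusters, and Vdr also differed with the tag inside some clusters. How much of the Vdr ratio goes with each was not tested. Cluster 5 made up 29.9% of CD11b-tag-high and 0.92% of CD11b-tag-low cells, while cluster 6 made up 41 of 1255 and 260 of 1300. Cluster 2 was closer to even, at 13.4% of CD11b-tag-high and 10.3% of CD11b-tag-low cells. Among the clusters with at least 30 cells in both groups, cluster 1 had 164 against 39 Vdr UMIs, a log2 ratio of 1.62 (1.12 to 2.18). Cluster 2 had 308 against 84 UMIs, a ratio of 0.85 (0.50 to 1.22), and cluster 3 had 37 against 8 UMIs, a ratio of 2.87 (1.81 to 4.25). Cluster 7 gave 1.86 (0.88 to 3.13), and the T and NK-like cluster 8 had 35 UMIs in CD11b-tag-high and 0 in CD11b-tag-low cells. In cluster 8 as a whole, 5 cells held 57.9% of the Vdr UMIs and 1 cell held 17, and these cannot be told apart from RNA of other cells. In clusters 4 and 6 the ratios of 0.74 (-0.04 to 1.56) and 0.97 (-0.46 to 2.14) had intervals that included 0.

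The other receptors had their own cluster patterns. Rxra was highest in the myeloid clusters, at 19.8 CPM in cluster 9 and 49.3 CPM in the 42 cells of cluster 12, led by Lyz1 and Ccl12, where it rested on 13 UMIs. It was 1.01 CPM (0.51 to 1.81) in cluster 5, where Vdr was highest. Rara was 39.9 CPM in cluster 9 and 29.0 CPM in cluster 2, against 8.76 CPM in cluster 1 and 6.99 CPM in cluster 10, led by Aldh1a2 and Clu. Over clusters of at least 50 cells, Rarg ran from 9.91 CPM in cluster 7 to 23.5 CPM in cluster 10, with 22.6 CPM in cluster 5. Rxrb was the most even, from 11.8 CPM in cluster 7 to 19.7 CPM in the T and NK-like cluster 8, over the same clusters.

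**Figure D4:**
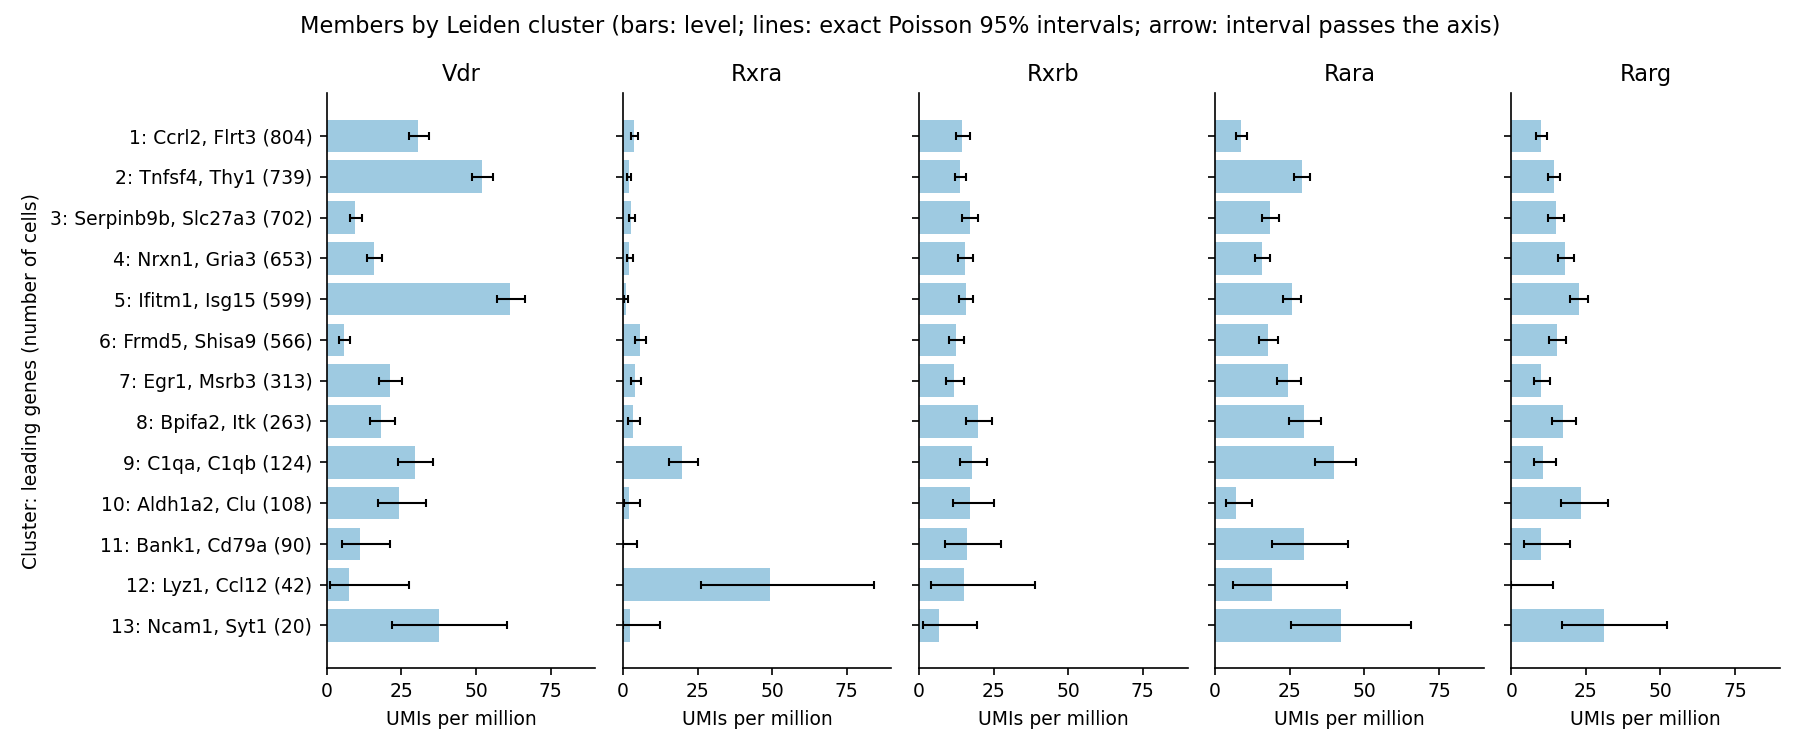
Levels of 5 receptor genes in each of the 13 clusters, in CPM (bars from 0; lines are exact Poisson 95% intervals; rows name leading genes and, in parentheses, the number of cells). Vdr stands out in clusters 2 and 5, at 52.1 and 61.5 CPM, and Rxra in clusters 9 and 12, at 19.8 and 49.3 CPM.

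The genes whose level was most like that of Vdr were named by Pearson correlation over 34 groups of cells, each a cluster within a population, among 6319 genes. They were Bhlhe40 (r = 0.82), a transcriptional repressor found in activated immune cells, Procr (0.77), the endothelial protein C receptor, Smim3 (0.74), Tmem131 (0.73) and Lrp8 (0.73), a lipoprotein receptor. Vdr itself had r = -0.20 with Rxra, -0.15 with Rxrb, 0.24 with Rara and 0.02 with Itgam over the same groups. The genes most like Rara were Vasp (0.87), an actin regulator, and Slco3a1 (0.84), an organic anion transporter, while the best match of Rxrb was Higd1a (0.72) and that of Rarg was Gnpnat1 (0.67). These groups share 1 capture and differ in depth, so the correlations describe these cells only.

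Few genes of vitamin D handling passed the size of 0.5. Of 8 genes of vitamin D uptake and metabolism 4 had at least 100 UMIs, among them Cyp27a1 and Cyp2r1, which encode enzymes with 25-hydroxylase activity, and 0 of the 4 passed 0.5 in size between CD11b-tag-high and CD11b-tag-low cells. Over all genes in that comparison 23.8% passed it, and the median was -0.10. Gc, the vitamin D binding protein gene, and Cyp3a11 had 0 UMIs. Cyp27a1 had 18.3 CPM in BFP+RFP+, 25.7 CPM in BFP-RFP+, 27.8 CPM in BFP+RFP- and 35.9 CPM in BFP-RFP- cells, lowest where both reporters were present. Its ratio of BFP+RFP+ to BFP+RFP- cells was -0.60 (-0.81 to -0.41), and Cyp2r1 gave -0.61 (-1.37 to 0.17) with the CD172a tag, from 34 against 28 UMIs. These were the only calls in this list over the 8 population and tag comparisons, where 9.73% to 25.9% of all genes passed.

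Genes known as vitamin D targets in various tissues moved in both directions with the CD11b tag. Of 18 listed genes 10 had at least 100 UMIs, and 4 of these were higher and 2 lower in CD11b-tag-high cells, with a median log2 ratio of 0.35. Of all genes with at least 100 UMIs, 9.12% were higher and 14.7% lower, with a median of -0.10. Trpv5, Trpv6 and Bglap, the calcium channel and bone genes, had 0 UMIs. Cd14, an LPS co-receptor gene that vitamin D induces in human monocytes, had 128 against 16 UMIs, a ratio of 2.29. Hbegf, an EGF family growth factor gene, had 136 against 7 UMIs, a ratio of 3.51 (2.52 to 4.95), and Cebpb, a myeloid transcription factor gene, had 796 against 188, a ratio of 1.40 (1.18 to 1.64). Lrp5 was the other higher gene, and Txnip was lower at -0.76. Monocyte and macrophage markers moved in the same direction as Cd14 and Cebpb, and their part in these values was not tested.

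Tnfsf11, which encodes RANKL and is a vitamin D target in bone-forming cells, ran opposite to Vdr on the CD11b tag, at -1.17, and differed between the sorted populations. It had 8.84 CPM in BFP+RFP+, 4.00 CPM in BFP-RFP+, 1.52 CPM in BFP+RFP- and 0.81 CPM in BFP-RFP- cells. The log2 ratio of BFP+RFP+ to BFP+RFP- cells was 2.54 (2.07 to 3.03) and that of BFP-RFP+ to BFP-RFP- cells was 2.26 (1.41 to 3.34). BFP+RFP+ cells exceeded BFP-RFP+ cells by 1.14 (0.70 to 1.60). Hbegf ran the other way with BFP, at -2.03 for BFP+RFP+ against BFP-RFP+ and -2.04 for BFP+RFP- against BFP-RFP- cells. Vdr had no such difference, as given above.

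On the retinoid side, 2 of 7 measured genes of metabolism and transport were higher by 0.5 or more with the CD11b tag, against 9.12% of all genes. The list did not lean upward as a whole, with a median log2 ratio of -0.13 against -0.10 over all genes. Aldh1a2, which makes retinoic acid, had 935 against 52 UMIs, or 37.0 CPM in CD11b-tag-high and 3.29 CPM in CD11b-tag-low cells, a log2 ratio of 3.48 (3.09 to 3.93). It was higher in CD11b-tag-high cells of all 4 populations, by 1.66 in BFP+RFP+, 3.45 in BFP-RFP+, 3.54 in BFP+RFP- and 5.18 in BFP-RFP- cells. Cluster 10 held 20.6% of the Aldh1a2 UMIs, at 191 CPM, and had 50 CD11b-tag-high and 0 CD11b-tag-low cells. The part of this cluster in the ratio was not tested. Aldh1a2 had 9.90 CPM in BFP+RFP+ against 23.9 CPM in BFP-RFP+ cells, a ratio of -1.27, and 17.1 CPM in BFP+RFP- against 22.7 CPM in BFP-RFP- cells, a ratio of -0.41 that stayed under the size of 0.5. In BFP+RFP+ 5 cells held 30.7% and in BFP-RFP+ 5 cells held 36.9% of the Aldh1a2 UMIs, and the shares of cells with a UMI were closer than the levels, at 9.03% and 10.7%. Fabp5, a carrier of retinoic acid and fatty acids, was also higher with the tag, at 0.81, and Rbp4, a retinol carrier, was lower at -1.97.

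Of 6 measured retinoic acid target genes, Tgm2, a transglutaminase gene, had 192 UMIs in CD11b-tag-high and 9 in CD11b-tag-low cells, and Asb2, a ubiquitin ligase subunit gene, had 72 and 9. Both passed 0.5 in size, at 3.67 and 2.26, and the other 4 did not, against 9.12% of all genes higher and 14.7% lower. Macrophage and monocyte markers were also higher with this tag, and their part in the Tgm2 and Asb2 values was not tested. Rarb, a retinoic acid receptor gene that retinoic acid itself induces in many cells, had 6 UMIs in BFP+RFP+, 38 in BFP-RFP+, 88 in BFP+RFP- and 47 in BFP-RFP- cells. The log2 ratio of Rarb was -2.41 (-4.04 to -1.25) for BFP+RFP+ against BFP-RFP+ cells. For BFP+RFP+ against BFP+RFP- cells it was -2.44 (-4.03 to -1.36). The 6 Rarb UMIs of BFP+RFP+ cells lay in 3 cells, 1 of which held 4. In both comparisons 2 of the 6 target genes were lower, Rarb and Asb2. The other way ran 1 gene, Rarres1, at 1.22 and 1.47. Of all genes, 16.1% and 13.4% passed 0.5 in either direction there.

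Among the other RXR partners, 3 of 9 measured genes were higher in CD11b-tag-high cells and 0 lower, against 9.12% and 14.7% of all genes. Pparg, the lipid-sensing receptor gene, had 103 UMIs in CD11b-tag-high and 1 in CD11b-tag-low cells. Nr1h3, which encodes LXRα, had 368 against 44 UMIs, a ratio of 2.38 (1.94 to 2.88), and Ppard gave 0.69. The macrophage and monocyte markers given above ran in the same direction, and their part in these values was not tested. Nr1h3 was also lower in BFP+ cells, at -0.92 in RFP+ and -1.21 in RFP- cells. Of the 11 coregulator genes, such as Ncor1, Ncoa1 and Med1, 0 passed 0.5 in size in any of the 8 population and tag comparisons. In these comparisons 9.73% to 25.9% of all genes with at least 100 UMIs passed it.

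**Figure D5:**
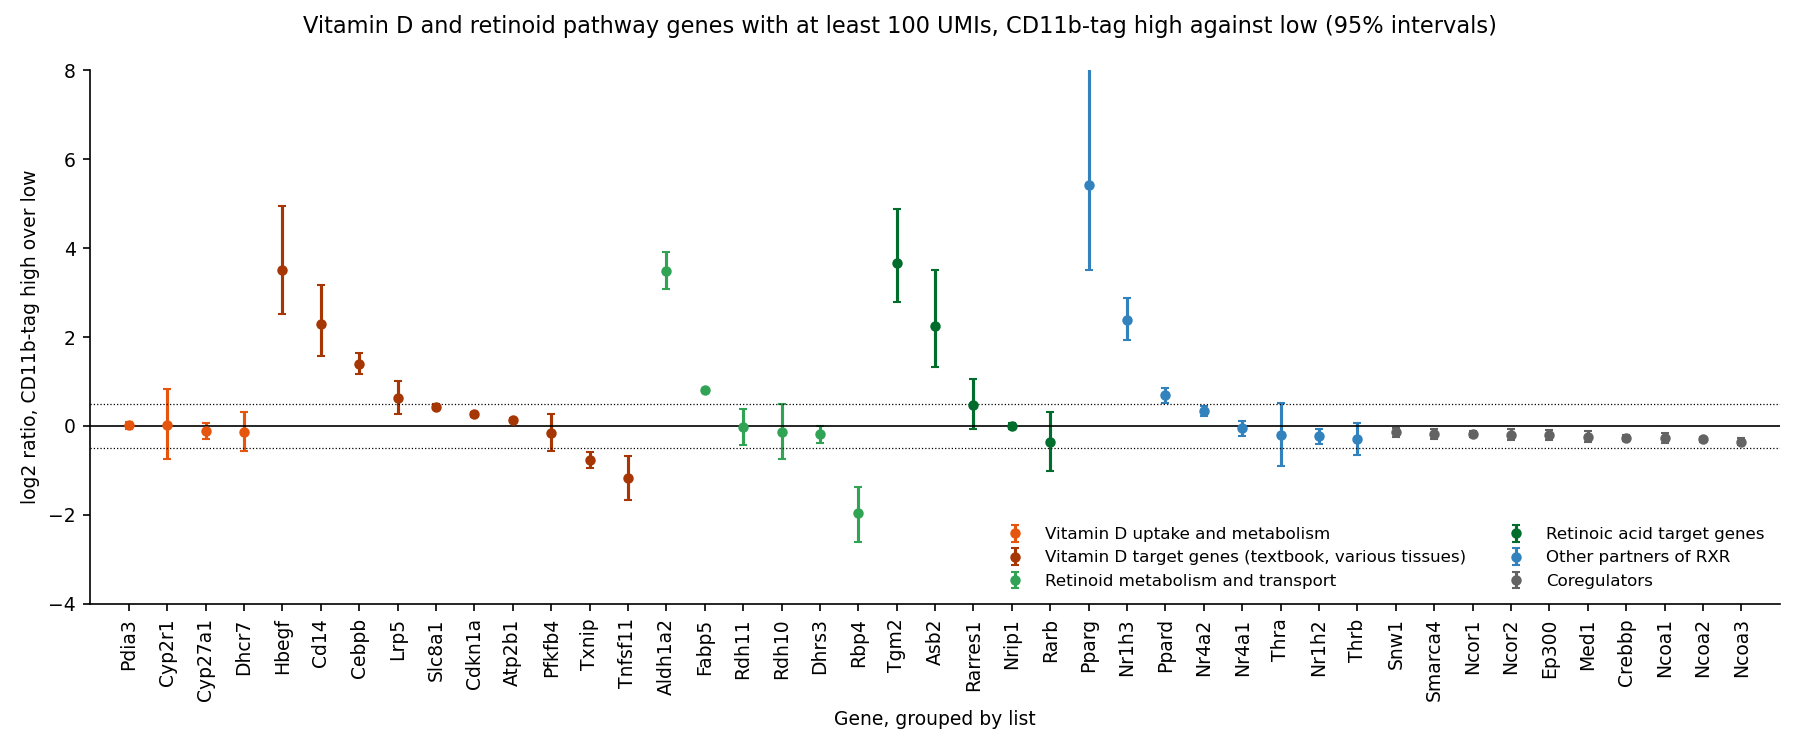
Log2 ratio between CD11b-tag-high and CD11b-tag-low cells for vitamin D and retinoid pathway genes with at least 100 UMIs, grouped by list; lines are 95% intervals of counting error, dotted lines mark 0.5 in size, and the interval of Pparg passes the axis. Aldh1a2, Tgm2, Hbegf, Nr1h3 and Cd14 lie above 2, while all coregulators lie within 0.5 of 0.

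The promoters of the 2 members that passed the size of 0.5 with a tag are shown with the half-sites that nuclear receptors of this family bind. The windows hold 250 bases before to 50 after an annotated start, from RefSeq on GRCm38.p6, and capitals mark any of 4 hexamers, named after the sequences, on either strand. The Vdr window, chr15:97908247-97908546 on the minus strand, holds 1 half-site, AGTTCA read on the opposite strand, at -91, and 3 GC boxes (GGGCGG on either strand). The Rxra window shown, chr2:27709042-27709341 on the plus strand, is that of its second listed start and holds 3 half-sites, at -105, -87 and -48; the window of its first listed start holds 0 half-sites and 4 GC boxes.
Vdr: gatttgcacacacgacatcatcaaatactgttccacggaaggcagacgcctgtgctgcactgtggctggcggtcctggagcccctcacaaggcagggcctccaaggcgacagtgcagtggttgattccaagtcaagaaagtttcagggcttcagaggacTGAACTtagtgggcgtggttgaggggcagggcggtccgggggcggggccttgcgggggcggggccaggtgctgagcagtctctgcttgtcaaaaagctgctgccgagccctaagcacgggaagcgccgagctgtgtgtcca
Rxra: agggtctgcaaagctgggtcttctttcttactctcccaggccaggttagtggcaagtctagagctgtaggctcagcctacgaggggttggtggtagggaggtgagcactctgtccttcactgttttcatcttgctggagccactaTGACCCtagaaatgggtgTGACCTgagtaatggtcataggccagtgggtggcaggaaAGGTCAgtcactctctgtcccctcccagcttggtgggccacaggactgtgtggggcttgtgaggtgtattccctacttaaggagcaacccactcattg
Of 32851 windows of the same length, 16.3% hold the hexamer AGGTCA and 14.0% hold AGTTCA on either strand. The share is 13.7% for the hexamer GGGTCA and 10.4% for the hexamer GGTTCA, and 35.7% of windows hold the GC box. A window with several motifs counts for each. A pair of these hexamers in the same direction with a gap of 3 bases, the arrangement bound by VDR with RXR, lies in 0.0396% of windows and in 0 of the 12 windows of 6 members. The same pair with a gap of 5 bases, the arrangement bound by RAR with RXR, lies in 0.0974% of windows and likewise in 0 of the 12. The coordinates belong to the promoter table's build, while the submitters' processing notes name GRCm39 for the counts.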

How the data were processed

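The deposited values are UMI counts per gene, antibody tag and hashtag for each cell barcode, from 1 10x Genomics 3' v3.1 capture. Per the file headers the authors used Cell Ranger 7.0.0. GRCm39 (mm39) is the build in the processing notes of the submitters. The deposited counts are neither normalized nor filtered by population. Of 22548 genes, 22404 IDs matched the gene-name table. Barcodes were assigned to a population where 80% or more of hashtag UMIs were 1 hashtag; 699 barcodes under that share, 213 under 1000 mRNA UMIs and 144 over 10% mitochondrial UMIs were left out. No doublet caller was run, so doublets within 1 population remain.

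UMIs were summed per population, tag bin or cluster, with a pseudocount of 0.5 UMI in ratios (Python 3.11.15, numpy 2.4.6, scipy 1.17.1, pandas 2.3.3). Clusters came from scanpy 1.11.5 on 2000 variable genes, 30 components and Leiden resolution 0.5. Names such as T and NK-like rest on listed markers; clusters 9 and 12 stayed unnamed. Each population is 1 sample, so no test across genes was run. A gene was called at a log2 ratio of 0.5 in size among genes with at least 100 UMIs; Cyp24a1, with 22, and Cyp27b1, with 0, did not reach this and are given by their counts. All 7 members are named, with the pathway genes of fixed lists and the 5 genes most like each member by correlation. For 1 gene of the retinoid list no result is reported here. The members and lists were chosen with earlier results of these data known. The alternatives were other demultiplexing (HTODemux of Seurat 5.3.0 in R 4.3.3), cell filters, tag scalings, 3 tag bins in place of 4, scalings and pseudocounts.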

Additional observations from a re-analysis of the deposited data

Results flagged for a closer look

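Rxra differed in direction with the CD11b tag between populations. The log2 ratio of CD11b-tag-high to CD11b-tag-low cells was 0.85 where RFP stood alone (BFP-RFP+) and -0.90 where BFP stood alone (BFP+RFP-), and both counting intervals left out 0. The difference between the populations was not tested, since each is a single sample.

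Vdr differed in direction with the CD8a tag. The log2 ratio of CD8a-tag-high to CD8a-tag-low cells was 0.67 for BFP+RFP+ and 0.77 for BFP-RFP+, against -0.91 for BFP+RFP-. This difference was likewise not tested.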

How the results depend on the processing

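No paired analysis was possible because no population has a second sample. Of the main results, 113 values under other settings moved by less than counting error (for counts of members, not at all). Another 32 moved further, and 2 changed sign from a main ratio of at least 0.5 in size. For the alternatives chosen after seeing the data, which leave out barcodes with 10 or more UMIs of other cell types' markers or clusters 8, 9, 11 and 12, the counts were 24 and 8. The Vdr ratio for the CD172a tag changed sign to -0.11 with tag UMIs per 10000 mRNA UMIs and to -0.77 with a centred log ratio. It was 0.29 with 3 tag bins, 0.19 without barcodes with 3 or more UMIs of other cell types' markers, 0.29 at 10 or more and 0.25 without the 4 clusters. The number of members called with CD172a was then 1, except 2 with the centred log ratio. Vdr with CD11b was 1.74 with 3 tag bins and 1.71 per 10000 mRNA UMIs. The members called with CD11b were 2 per 10000 mRNA UMIs, with the centred log ratio and under median-ratio scaling (Vdr and Rarg), and 3 (Rxra lower as well) without barcodes with 3 or more marker UMIs or without the 4 clusters. Vdr with CD8a was -0.59 per 10000 mRNA UMIs, -0.78 with the centred log ratio and -0.40 without the 3-UMI barcodes, with 3, 2 and 2 members called. Vdr with CD301b was -0.18 per 10000 mRNA UMIs and -0.76 with the centred log ratio, both opposite in sign to its main value. Sign changes of main ratios under 0.5 in size, such as this one, are not among the 2 counted above. There 1 member was called per 10000 mRNA UMIs, without the 3-UMI or 10-UMI barcodes and without the 4 clusters, and 2 with the centred log ratio. Without the 4 clusters 0 members were called between BFP+RFP- and BFP-RFP- cells. The causes were not tested. Shares of cells depend on depth. Unthinned and at 10000 UMIs they were 23.2% and 18.9% for Vdr, 4.90% and 3.15% for Rxra, 20.7% and 13.5% for Rxrb, 24.2% and 16.5% for Rara, and 19.6% and 13.5% for Rarg.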
